A study of Mus musculus with 6 samples.

Results

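The Ms4a genes encode small proteins that cross the membrane 4 times, and 8 of them that are known from myeloid cells were examined. They were taken by symbol from a table of 19973 genes: Ms4a6b, Ms4a6c and Ms4a6d, Ms4a7, Ms4a4a and Ms4a4c, Ms4a8a and Ms4a14. All 8 were present in the table, and all 8 were among the 11795 genes with a mean normalized count of at least 10 that entered the test. The RNA came from peritoneal macrophages of male C57BL/6 mice, a common inbred laboratory strain, with 3 libraries from old animals of 18 months and 3 from young animals of 2 months. Every animal of both ages had received 200 µg of zymosan A, a yeast cell wall preparation that sets off peritonitis, into the peritoneal cavity. The lavage took place 72 hours later. Cells were kept overnight in complete DMEM with L-cell media, cells that had not attached were rinsed away, and the vehicle PBS was given for 6 hours. No animal without zymosan, no resolvin D2 treatment and no sort by surface marker enters the comparison. The series describes 3 mice per group and repeated sequencing of the RNA of each mouse, but not whether a library stands for a mouse or for a repeat, so the p-values measure the spread between libraries and may be partly technical.

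MS4A proteins sit in the plasma membrane and in endosomes, with both ends in the cytoplasm, and several act as adaptors beside other receptors. The best known relatives are MS4A1, which is the B cell antigen CD20, and MS4A2, the beta chain of the high-affinity IgE receptor on mast cells. In macrophages MS4A4A associates with dectin-1, the receptor for the beta-glucan of yeast cell walls, and is induced by interleukin 4 and by glucocorticoids. Common human variants near MS4A4A and MS4A6A are linked to soluble TREM2 and to the risk of Alzheimer's disease, and MS4A7 is widely used as a marker of certain brain macrophages.

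The libraries held 8163000 to 13008000 reads. In a principal component analysis of all tested genes, 71.5% of the variance lay on the first component, along which the ages were apart, and 18.2% on the second, which had old replicate 3 and young replicate 3 at its opposite ends. Old replicate 3 was the lowest old library for 5 of the 8 Ms4a genes, and young replicate 3 was the highest young library for 6. Values without both of these libraries are therefore given where they change a call. The 10 macrophage markers listed for the check of the label were all present. Their summed normalized counts were 383167 to 478320 in old and 294102 to 370400 in young libraries. Lyz2 held most of that sum, with a mean of 348663 against 268077, and overlapped between the ages without passing (limma adjusted p 0.22). Of the 10 markers, 7 were higher and 1 lower in old libraries. Over all tested genes 17.9% were called higher and 17.6% lower. Markers of other cells also differed. All 10 B cell markers were higher in old libraries, with a summed count of 1671 to 3312 against 125 to 129. Apart from Cd22 and Ighm, their young means were under 10, so they entered the test through their old libraries. The 11 listed T and NK cell markers in the table summed to 80.0 to 118 against 7.61 to 13.1, and Trac and Ncr1 were at 0 in all young libraries. The 8 mast cell markers summed to 557 to 625 against 50.3 to 76.3, the 6 neutrophil markers in the table to 7930 to 9906 against 961 to 1066, the 3 eosinophil markers to 30.5 to 45.3 against 8.05 to 17.5 and the 8 dendritic cell markers to 38.1 to 64.5 against 17.7 to 22.8. The neutrophil sum in old libraries was held mostly by Mmp8, a collagenase, with a mean of 8169 against 285. S100a8 was also higher, Mmp9 was lower (log2 fold change -0.53, adjusted p 0.00396), and Cxcr2, Camp and Ltf were at or near 0 at both ages. The mesothelial and fibroblast markers overlapped, with 641 to 722 in old and 643 to 778 in young libraries. The 10 resident large peritoneal macrophage markers summed to 1899 to 2616 in old and 1322 to 1746 in young libraries. Cd5l held most of that sum, with a mean of 1930 against 1178. Of the 7 tested, 3 were higher (17.9% of all tested genes) and 0 lower (17.6%). Selp, among the higher, had a young mean of 8.92 and entered the test through its old libraries. Every old library was above every young one for 3 markers (24.0% of all tested genes). All old libraries were below all young ones for Gata6 (9.99 against 14.9) and Garnl3 (5.68 against 11.4), as they were for 23.6% of all tested genes. The summed monocyte-derived and small macrophage markers were 5233 to 7278 in old and 8452 to 10224 in young libraries, a sum held largely by F13a1 and Mrc1, both lower in old. Of the 10 tested markers of that list, 5 were higher, 3 were lower and the median log2 fold change was 0.68, so the sum and most calls differ in direction. Ly6c2 and Plac8, among the higher, had young means under 10 and entered the test through their old libraries. Fcrls, among the lower, had an old mean of 5.46 and entered through its young ones. In bulk RNA, fewer cells of a type and less RNA per cell cannot be told apart.

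Of the 8 Ms4a genes, 3 were higher in old macrophages, 1 was lower and 4 did not pass the test (limma, adjusted p under 0.05 over all tested genes). Ms4a4c was 4.39-fold higher in the ratio of means, Ms4a7 was 1.51-fold higher, Ms4a6d was 1.49-fold higher and Ms4a14 stood at 0.542 of its young level. The test thus called 4 of the 8 genes, where it called 35.5% of all tested genes. The higher calls were 37.5% of the genes against 17.9% of all tested genes, and the lower call was 12.5% against 17.6%. With 8 genes these shares move in steps of 12.5 percentage points. The libraries of the 2 ages did not overlap in the same 4 genes, 3 of them higher (24.0% of all tested genes) and 1 lower (23.6%). Separation in either direction, at 4 of 8, was near the 47.5% of all tested genes. The median log2 fold change of the 8 was 0.46, and that of all tested genes was 0.00014.

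**Figure D1:**
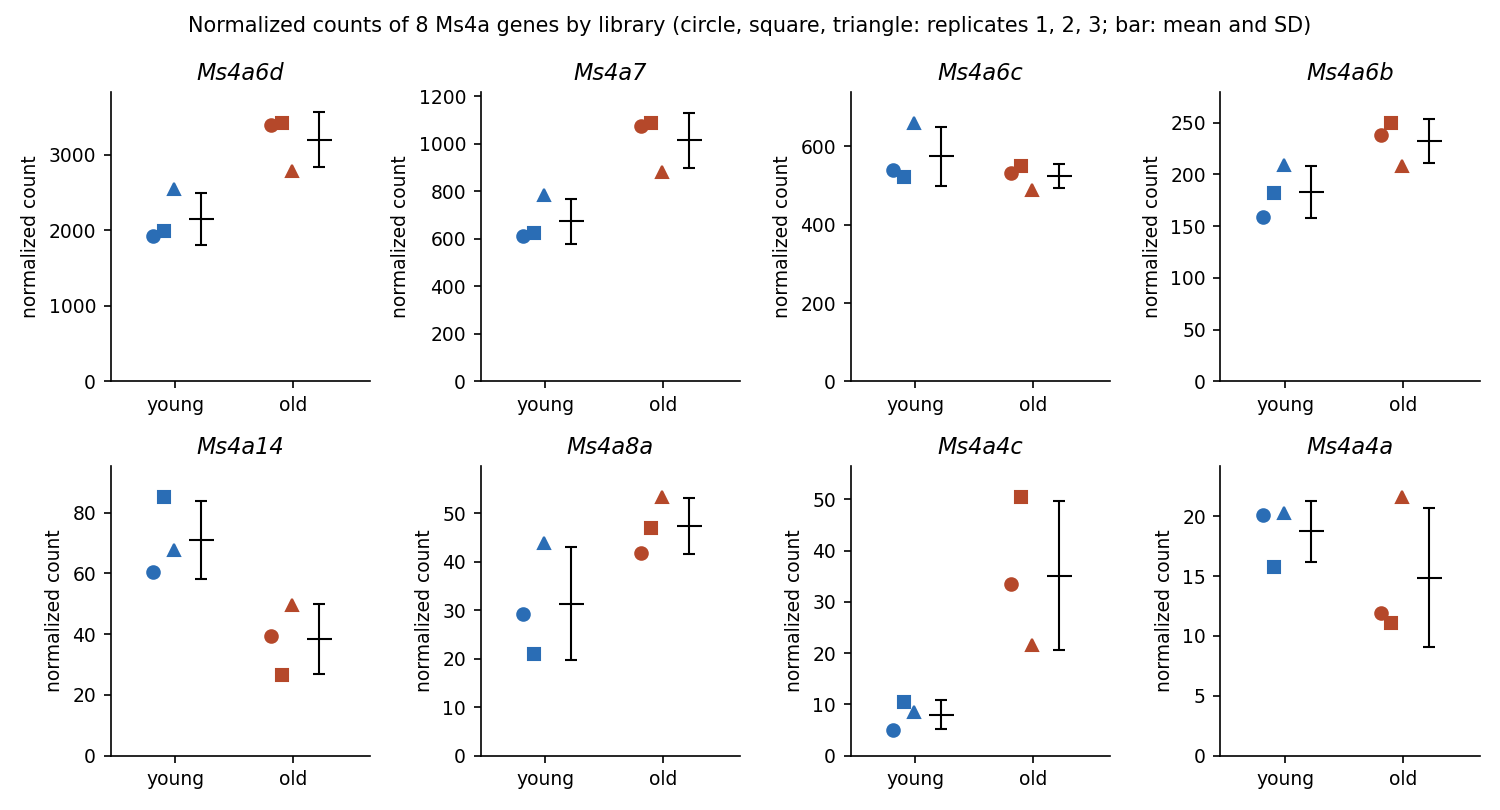
Normalized count of each Ms4a gene (vertical axes, each from 0) in the 3 young and 3 old libraries, with the mean and SD beside the points. The ages do not overlap for Ms4a6d, Ms4a7, Ms4a4c and Ms4a14, and in the Ms4a6d and Ms4a7 panels the triangles (replicates 3) lie nearest to the other age.

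The 8 genes lie on chromosome 19 within a region that begins at Ms4a8a and ends at Ms4a6d, and their proteins fall into close and distant relatives. Positions are those of GENCODE M21 on GRCm38 and span whole genes, exons and introns together. Over the 28 pairs, protein identity had a median of 36.7% and a range of 31.7% to 72.9%. The Ms4a6 proteins were the nearest to each other: Ms4a6b shared 72.9% of aligned residues with Ms4a6c and 71.3% with Ms4a6d, and Ms4a6c shared 65.0% with Ms4a6d. Ms4a4a and Ms4a4c were 47.7% identical. The proteins were 217 to 290 residues long, except that of Ms4a14 with 1232.

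The sequence before the start of transcription is shown for 4 of the genes, to set Ms4a6c and Ms4a6b, whose upstream sequences are alike, beside Ms4a7, which rose with Ms4a6d, and Ms4a14, which fell. RefSeq's table on GRCm38.p6 gave windows for 7 of the 8 genes, with no entry for Ms4a6d. The RefSeq start of Ms4a6b, at 11518559, lies inside the gene span given by GENCODE, which begins at 11516512. That of Ms4a4c, at 11407661, also lies inside its span, which begins at 11404770. The windows reach from 250 bases before to 50 after the start, and only bases before the start that lie in no annotated exon are printed, 5′ to 3′ on the strand of the gene. Capitals mark matches, on either strand, to 4 of the searched motifs. They are the interferon response core GAAANNGAA, the AP-1 site TGANTCA, the TATA box TATAAA and the letters TGTTCT. The last are only a part of a glucocorticoid receptor site. The windows are chr19:11469118-11469365 (plus strand) for Ms4a6c, chr19:11518309-11518452 (plus) for Ms4a6b, chr19:11336147-11336396 (minus) for the first of the Ms4a7 windows, and chr19:11314455-11314704 (minus) for Ms4a14.
Ms4a6c: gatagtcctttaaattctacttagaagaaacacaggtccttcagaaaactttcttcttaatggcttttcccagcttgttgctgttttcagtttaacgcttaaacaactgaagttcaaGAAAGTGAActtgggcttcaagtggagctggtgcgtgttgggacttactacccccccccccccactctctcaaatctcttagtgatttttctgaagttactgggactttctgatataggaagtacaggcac
Ms4a6b: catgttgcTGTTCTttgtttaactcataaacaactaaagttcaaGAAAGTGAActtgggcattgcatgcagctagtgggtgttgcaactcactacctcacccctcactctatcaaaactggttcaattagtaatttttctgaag
Ms4a7: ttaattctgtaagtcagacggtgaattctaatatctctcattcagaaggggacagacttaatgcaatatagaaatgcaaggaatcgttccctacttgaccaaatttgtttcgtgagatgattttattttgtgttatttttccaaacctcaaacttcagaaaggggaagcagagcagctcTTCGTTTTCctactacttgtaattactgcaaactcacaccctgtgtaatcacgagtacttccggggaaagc
Ms4a14: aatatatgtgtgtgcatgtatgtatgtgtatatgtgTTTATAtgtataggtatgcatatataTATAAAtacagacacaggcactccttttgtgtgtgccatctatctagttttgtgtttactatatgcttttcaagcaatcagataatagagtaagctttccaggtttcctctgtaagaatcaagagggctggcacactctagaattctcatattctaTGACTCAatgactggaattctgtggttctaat

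Over 173 aligned bases the upstream sequences of Ms4a6c and Ms4a6b were 89.6% identical, with a longest shared run of 48 bases, while no other pair among the first windows of the 7 genes shared a run longer than 9 bases. Both held the same match GAAAGTGAA to the interferon response core, from -133 to -125 in Ms4a6c and from -206 to -198 in Ms4a6b, counted from the start of transcription. Ms4a7 held one on the other strand, from -71 to -63. This core was present in the first window of 3 of the 7 genes and in 8.56% of all 32851 windows of that length. The second Ms4a7 window held the core, the AP-1 letters and TGTTCT, and is not in these counts. The AP-1 letters occurred in Ms4a14, from -32 to -26, and in Ms4a8a, and in 7.81% of all windows. TGTTCT occurred in Ms4a4c (after the start), Ms4a6b and Ms4a8a and in 19% of all windows, and TATAAA in Ms4a14 and in 13.6%. The TATAAA matches of Ms4a14 lay from -188 to -183 and, on the other strand, from -214 to -209. No window of the 7 genes held PU.1 letters GAGGAAGT (3.20% of all windows), STAT letters TTCNNNGAA (8.30%) or C/EBP letters TTNNGCAAT (2.18%), which says only that these letters are not in these windows. These are matches of letters, and the data measure no binding.

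Of the 3 Ms4a6 genes, which are known from monocytes and macrophages, 1 passed the test. Ms4a6d (ENSMUSG00000024679, chr19:11586604-11604849) had normalized counts of 3395, 3419 and 2780 in old replicates 1, 2 and 3, and of 1921, 1989 and 2550 in young replicates 1, 2 and 3. Each old library was above each young one, with old replicate 3 and young replicate 3 nearest to each other. The log2 fold change was 0.58 ± 0.12 (SE), with a limma adjusted p of 0.00521.

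Ms4a6c (ENSMUSG00000079419, chr19:11469366-11482192) had counts of 532, 550 and 489 in old libraries and of 540, 522 and 659 in young ones. The ages overlapped, and the highest value was that of young replicate 3. Its log2 fold change was -0.13 ± 0.10 with an interval from -0.35 to 0.10 and an adjusted p of 0.356, and without both libraries numbered 3 it was 0.03. The non-coding gene BE692007 lies over Ms4a6c on the opposite strand, and 993 of the 2001 distinct 50-base stretches of Ms4a6c transcripts are also found in it. BE692007 had counts of 19.1, 18.8 and 27.9 in old and 1.01, 0 and 1.69 in young libraries. Its log2 fold change was 3.69 with an adjusted p of 0.00124. All its young counts were under the limit on the mean, so BE692007 entered the test through its old libraries. Whether counting used strand is not given in the sources used here, so reads of these genes cannot be told apart, although the counts of BE692007 were far below those of Ms4a6c.

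Ms4a6b (ENSMUSG00000024677, chr19:11516512-11531256), which is also known from T cells, had counts of 238, 250 and 208 in old libraries and 159, 182 and 209 in young ones. The ages overlapped only between the libraries numbered 3, by less than 1 count. Its log2 fold change of 0.34 ± 0.12 did not pass, with an adjusted p of 0.0557 and an interval from 0.07 to 0.62. It passed without old replicate 3 (0.42, adjusted p 0.0134), without young replicate 3 (0.44, 0.0252) and without both (0.52, 0.000447), and also with quantile normalization, median centring or a mean of at least 50. It did not pass in the other 11 alternatives. The antisense gene Gm19261, not analysed here, overlaps Ms4a6b by 442 bases on the opposite strand, so its counts are uncertain to that extent.

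Ms4a7 (ENSMUSG00000024672, chr19:11321039-11336146), a gene of tissue macrophages, rose by nearly the same factor as Ms4a6d. Its counts were 1077, 1088 and 883 in old libraries and 612, 626 and 783 in young ones. The ages did not overlap, and the libraries numbered 3 were again the nearest. The log2 fold change was 0.59 ± 0.12, with an adjusted p of 0.00348. Both Ms4a7 and Ms4a6d were called higher in all 17 alternative settings.

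Of the Ms4a4 genes, 1 passed the test. Ms4a4c (ENSMUSG00000024675, chr19:11404770-11427246), a mouse relative of Ms4a4a, had counts of 33.5, 50.4 and 21.6 in old libraries and of 5.03, 10.5 and 8.45 in young ones. Every old library was above every young one, with old replicate 3 the lowest of the old. The log2 fold change was 1.98 ± 0.40, with an adjusted p of 0.00443, and it was called in all 16 settings that could test it. These values rest on 104 reads in the old and 27 in the young libraries. The young mean of 8.0 is under the limit of 10, so that Ms4a4c entered the test through its old libraries. With no limit on low counts its adjusted p was 0.00385. The pseudogene Gm5692, not analysed here, overlaps Ms4a4c by 235 bases on the opposite strand, which adds to the uncertainty of its counts.

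Ms4a4c is also the member most like a gene of another cell type. Its protein was 84.5% identical to that of Ms4a4b, a T and NK cell gene that is not among the 8, and 135 of its 1747 distinct 50-base stretches are found in Ms4a4b transcripts. Ms4a4b had counts of 13.1, 17.1 and 11.4 in old and 0, 1.75 and 0 in young libraries, and fell below the limit of 10. In a fit without that limit its log2 fold change was 3.39 with an adjusted p of 0.000773. Beside Ms4a4c, all 10 B cell markers were called higher. Of the 11 T and NK cell markers in the table, 10 had old libraries above all young ones. Lck alone was tested, and it was higher. Its young mean was under the limit, so Lck entered the test through its old libraries. The part of those cells in the Ms4a4c value was not tested.

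Ms4a4a (ENSMUSG00000101389, chr19:11375523-11392790), the gene whose human counterpart partners dectin-1, was among the lowest of the 8. Its counts were 12, 11.1 and 21.6 in old libraries and 20.1, 15.8 and 20.3 in young ones. The ages overlapped because old replicate 3 was the highest of all 6. The log2 fold change of -0.36 ± 0.34 had an adjusted p of 0.442 and an interval from -1.14 to 0.41. These values rest on 40 reads in the old and 62 in the young libraries, and a difference inside that interval remains possible.

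Ms4a8a (ENSMUSG00000024730, chr19:11067471-11081102) is induced in macrophages by interleukin 4 together with glucocorticoid and is known from tumour-associated macrophages. Its counts were 41.8, 47.0 and 53.3 in old libraries and 29.2, 21.1 and 43.9 in young ones. Young replicate 3 lay inside the old range. The log2 fold change of 0.63 ± 0.27 did not pass, with an adjusted p of 0.101. It passed without young replicate 3 (0.90, adjusted p 0.0248) and without both libraries numbered 3 (0.81, 0.0116), and in none of the other 14 settings.

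Ms4a14 (ENSMUSG00000099398, chr19:11301249-11314454), the gene of the long protein, was the only one of the 8 called lower. Its counts were 39.4, 26.5 and 49.5 in old libraries and 60.4, 85.1 and 67.6 in young ones. The ages did not overlap, and the extremes were old replicate 2 and young replicate 2. The log2 fold change was -0.90 ± 0.25, with an adjusted p of 0.0191. The call was lost without old replicate 2 (-0.66, adjusted p 0.0582), without young replicate 2 (-0.76, 0.0868) and with the replicate number as a block (0.0635).

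**Figure D2:**
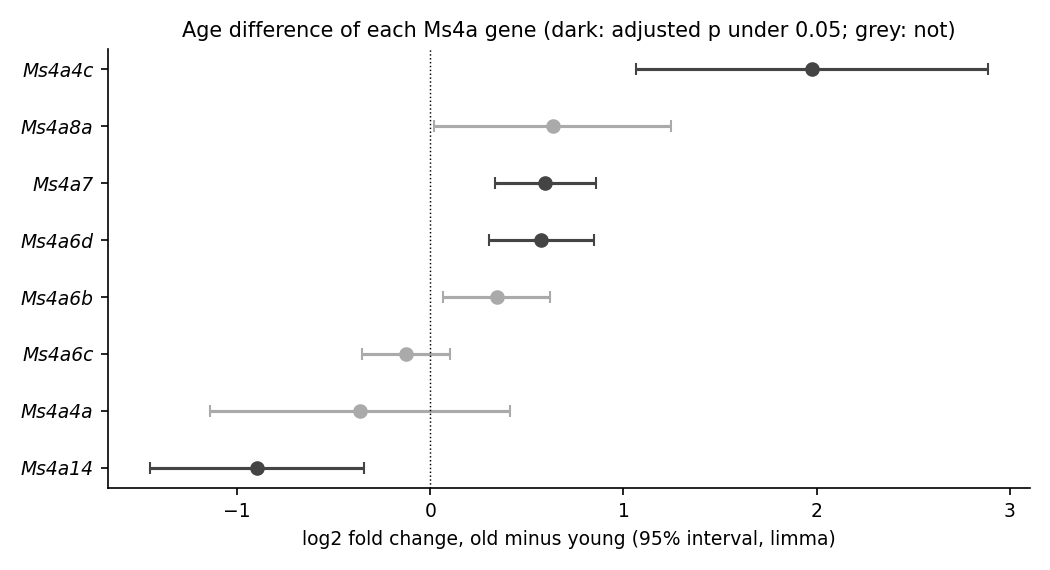
Log2 fold change of each Ms4a gene, old minus young, from limma (horizontal axis), with its 95% interval. Dark points passed at an adjusted p under 0.05 and grey ones did not, and the widest intervals belong to Ms4a4c and Ms4a4a, the genes with the fewest reads.

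Levels between genes were compared per kilobase of merged exons. The summed level of the 8 genes was 2577, 2614 and 2166 in old libraries and 1602, 1640 and 2084 in young ones. Every old library was higher, and old replicate 3 and young replicate 3 differed little. The means were 2452 ± 249 and 1775 ± 268 (SD, n = 3 each), a ratio of 1.38, which was 1.60 without both libraries numbered 3. Ms4a6d alone made up most of the sum.

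The order of levels was similar at both ages at the top and differed at the bottom. In old libraries Ms4a6d had 1843 ± 209 normalized counts per kilobase, Ms4a6c 255 ± 15.2, Ms4a7 228 ± 25.9 and Ms4a6b 51.7 ± 4.74. In young libraries Ms4a6d had 1241 ± 199, Ms4a6c 280 ± 36.3, Ms4a7 151 ± 21.4 and Ms4a6b 40.8 ± 5.56. The ranges of Ms4a6c and Ms4a7 overlapped in old libraries and were separate in young ones. The last 4 places lay between 9.47 (Ms4a14) and 26.4 (Ms4a8a) in old libraries, where Ms4a8a, Ms4a4c and Ms4a4a overlapped each with the next. In young libraries they lay between 4.57 (Ms4a4c) and 22.4 (Ms4a4a), so that Ms4a4c was the lowest of the 8 there. With the length of the longest protein-coding transcript, Ms4a7 was above Ms4a6c at both ages, with 645 against 284 in old and 427 against 312 in young libraries. The order of these genes therefore depends on which transcript length is used.

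Ms4a6d made up 75.1% ± 0.998 of the summed level in the old libraries (SD, n = 3) and 69.9% ± 0.698 in the young (n = 3). Ms4a6c made up 10.4% ± 0.502 in old and 15.8% ± 0.564 in young libraries. Both shares were separate between the ages in every library, in opposite directions. Ms4a7 made up 9.29% ± 0.124 and 8.53% ± 0.0755. The 5 other genes each held under 3% at both ages. Shares of 1 sum are not independent: a higher share of Ms4a6d lowers the rest. With protein-coding transcript lengths Ms4a6d made up 67.0% and 63.2%.

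Ratios within a library show how the genes moved against each other. The count of Ms4a6d was 3.14 to 3.26 times that of Ms4a7 in all 6 libraries. Its count over that of Ms4a6c was 6.38, 6.22 and 5.69 in old libraries and 3.56, 3.81 and 3.87 in young ones. The first ratio was nearly the same at both ages, and the second was higher in each old library than in any young one. The ratio of Ms4a6b to Ms4a6c was 0.447, 0.454 and 0.426 in old libraries and 0.294, 0.348 and 0.317 in young ones. It separated the ages even though neither gene passed alone.

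The ratios named here were chosen after their values were seen and are a description without a test. Of all 28 pairs of the 8 genes, 20 had ratios that did not overlap between ages, so separation alone sets none of these pairs apart. The mean log2 ratio of Ms4a6d to Ms4a6c differed by 0.70, that of Ms4a6b to Ms4a6c by 0.47 and that of Ms4a4c to Ms4a4a by 2.34. Ms4a6d and Ms4a7 differed by -0.02 and had the narrowest ratio of the 28 pairs. Their log2 ratio spanned 0.05 over the 6 libraries, and the next pair spanned 0.38.

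**Figure D3:**
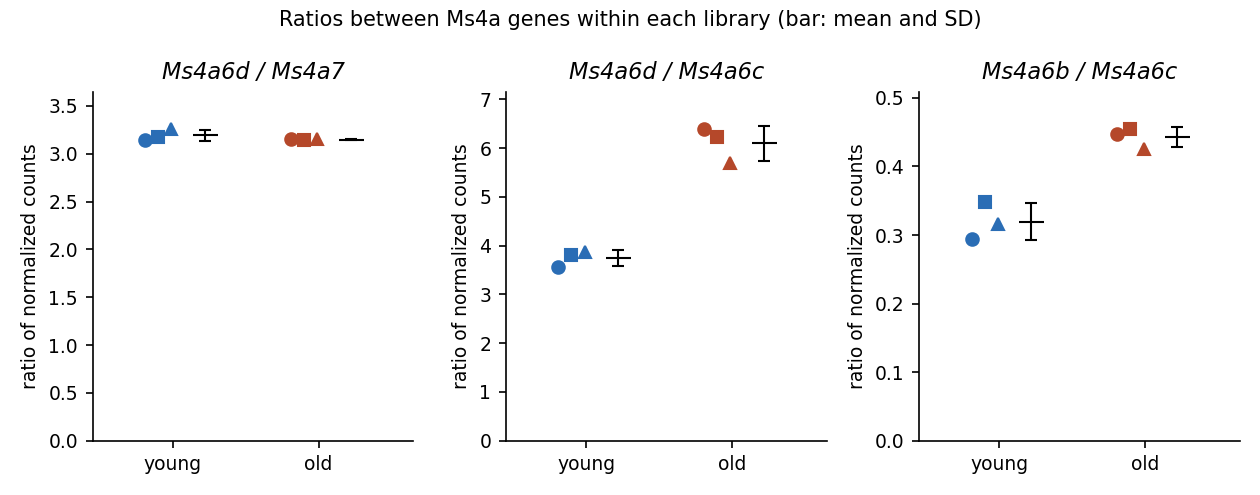
Ratio of normalized counts within each library (vertical axes, each from 0) for Ms4a6d to Ms4a7, Ms4a6d to Ms4a6c and Ms4a6b to Ms4a6c, with mean and SD. The left ratio stays between 3.14 and 3.26 in all 6 libraries, and the others are higher in each old library than in any young one.

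The genes most like Ms4a6d over the 6 libraries, among 9269 candidates with a mean of at least 50, were BC031181 (Pearson r 0.999), Creb3 (0.999), a transcription factor of the secretory pathway, and Ctnnb1 (0.999), which encodes beta-catenin. Ms4a7 came at rank 4, Ms4a6b at rank 425 and Ms4a6c at rank 5104, with r of 0.999, 0.968 and -0.01. For Ms4a4c they were Gpbp1l1 (0.998), Hlcs (0.997), which attaches biotin to carboxylases, and Dbnl (0.994), an actin-binding adaptor. These correlations describe 6 libraries that share the age difference and the position of the libraries numbered 3.

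Along the chromosome the estimated age differences were of both signs. From Ms4a8a to Ms4a6d the log2 fold changes of the 8 in order of position were 0.63, -0.90, 0.59, -0.36, 1.98, -0.13, 0.34 and 0.58. Among the negative values only that of Ms4a14 passed the test, and the intervals of Ms4a4a and Ms4a6c include 0. Of 42 other protein-coding genes within 500 kb of the Ms4a genes, 18 were tested, of which 3 were higher and 5 lower with a median log2 fold change of -0.0043. Among the higher, Gm8369, which lies between Ms4a6c and Ms4a6b, had a young mean of 8.2 and entered the test through its old libraries. Over all tested genes 17.9% were higher and 17.6% lower. Those with the smallest adjusted p were Stx3, a membrane fusion protein (0.53, adjusted p 0.00064), Cyb561a3, a lysosomal cytochrome (0.74, 0.0015), and Patl1, an mRNA decay factor (-0.40, 0.00469).

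**Figure D4:**
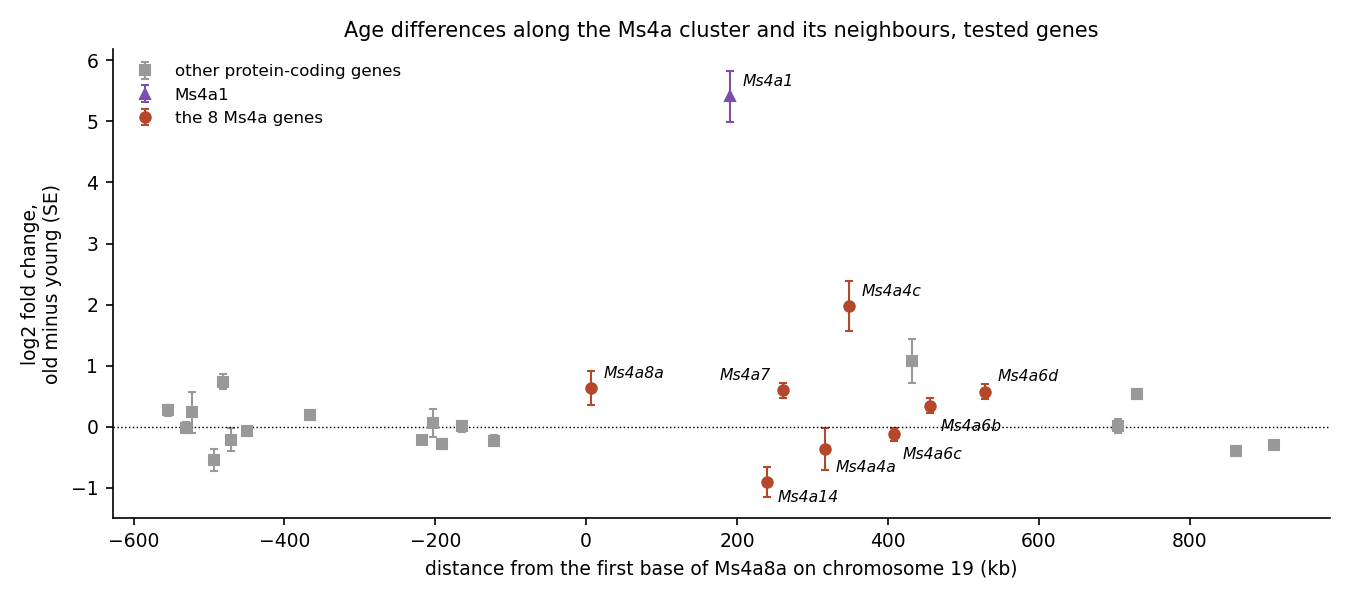
Log2 fold change, old minus young, with its SE, of each tested gene against its distance in kilobases from the first base of Ms4a8a on chromosome 19. The 8 Ms4a genes (circles) range from -0.90 to 1.98, and Ms4a1 (triangle) stands above all of them at 5.41.

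Other family genes in the table carried the marks of other cells. Ms4a1, the CD20 gene of B cells, had counts of 145, 170 and 74.9 in old and 2.01, 0.877 and 3.38 in young libraries, with a log2 fold change of 5.41 and an adjusted p of 1.18e-05. The mast cell gene Ms4a2 was near 0, with 1.20, 1.71 and 3.81 in old and 0, 0.877 and 0.845 in young libraries. The relatives Tmem176a and Tmem176b, membrane channels of myeloid and dendritic cells on chromosome 6, did not pass (0.36, adjusted p 0.574, and -0.14, adjusted p 0.732). Ms4a3, Ms4a4d and the other listed relatives were not analysed here.

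A list of 11 genes linked to MS4A proteins held partners and also genes linked less directly, such as Card9, Adam10 and Adam17. Of the 11, 10 were tested, of which 6 were higher and 2 lower, with a median log2 fold change of 0.39. The shares of all tested genes were 17.9% higher and 17.6% lower. Clec7a, which encodes dectin-1, had 2323, 2288 and 1845 in old and 1425, 1611 and 1865 in young libraries, and passed with a log2 fold change of 0.40 and an adjusted p of 0.0263, although old replicate 3 lay below young replicate 3. Syk, the kinase that relays dectin-1 signals, was higher by 0.24 (adjusted p 0.0265), while Card9, the adaptor downstream of it, was lower (-0.58, adjusted p 0.000825). Trem2, the lipid receptor linked to the human MS4A locus, had 3456, 3677 and 3460 in old and 2788, 2548 and 2816 in young libraries, and was higher by 0.38 (adjusted p 0.00225). Its adaptor Tyrobp was higher by 0.66 (0.00231). Adam10, a protease that sheds TREM2 from the cell surface, was lower with a log2 fold change of -0.82 (adjusted p 2.14e-05), and Adam17, another sheddase, did not pass (0.08, 0.455).

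Saa3, an acute-phase protein made by macrophages, was higher by 1.28 (adjusted p 5.32e-05). Vsig4, a complement receptor of resident macrophages, did not pass (0.57, adjusted p 0.0604). Kit, which MS4A4 proteins accompany in mast cells, was higher by 2.56 (7.06e-05) beside the mast cell markers given above, and the part of mast cells in it was not tested. Tnfrsf18, the GITR receptor of T cells, was below the limit of 10.

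Genes that respond to signals known to act on Ms4a4a and Ms4a8a were called in both directions. Of 12 genes of the response to glucocorticoids and interleukin 4, 10 were tested, with 2 higher (17.9% of all tested genes), 5 lower (17.6%) and a median log2 fold change of -0.27. The count of 2 is near the share of all genes. Arg1, an arginine-cleaving enzyme induced by interleukin 4, was lower by 6.77-fold (log2 fold change -2.75, adjusted p 1.06e-07), and Fkbp5, a glucocorticoid target, was lower by 3.20-fold (-1.67, 5.48e-07). Tsc22d3, another glucocorticoid target, was higher (0.77, 4.47e-05). Ms4a4a and Ms4a8a, the members known to respond to these signals, did not pass.

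Of 13 type I interferon response genes, 12 were tested, with 3 higher (17.9% of all tested genes), 0 lower by limma (17.6%) and a median of 0.19. The count of 3 is near the share of all genes. At an unadjusted p under 0.05, 1 of them was lower (Ifit2, -0.29), and 0 were lower by edgeR or DESeq2. Those higher were Irf7, a regulator of interferon genes (2.36, adjusted p 1.06e-07), Oasl2 (1.04, 3.23e-05) and Rsad2, an antiviral enzyme (0.48, 0.0158). Of 11 myeloid transcription factors, all tested, 5 were higher (17.9% of all tested genes) and 4 lower (17.6%), with a median of -0.16. They included Irf8, a factor of monocyte development (-0.87, adjusted p 1.06e-05), Pparg, a lipid-sensing nuclear receptor (1.51, 2.5e-05), and Irf4 (2.51, 4.66e-05), which B cells also express. Annotated genes overlap Ms4a1, Tmem176a, Tmem176b, Card9, Adam17, Tnfrsf18, Irf7, Irf8, Pparg, Fkbp5, Cyb561a3 and Patl1, whose counts are uncertain to that extent. No relation between these genes and the Ms4a genes was tested.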

How the data were processed

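RNA of peritoneal macrophages was prepared with the TruSeq protocol, per the labels, and 3 old and 3 young libraries were compared. The deposited table holds a signal per Ensembl gene and library, which is a count that the authors divided by a size factor of the library. DESeq2 and the build mm10 are named in the submitters' processing notes. How reads were aligned and counted, on which annotation and strand, is not given in the sources used here. In each column the values are multiples of 1 step, and dividing by it gave whole reads for 100% of values within 0.01 reads. Read totals ran from 8163000 to 13008000, and 19917 of 19973 identifiers matched a symbol. Positions and lengths come from GENCODE M21 on GRCm38.

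The test was limma 3.58.1 with a variance trend, in R 4.3.3, on log2(normalized count + 1) of genes with a mean of at least 10, with old minus young as the contrast. Fold changes on this scale understate those of low genes, and a fold value is the old mean over the young mean. Benjamini-Hochberg adjustment ran over 11795 genes at a threshold of 0.05. On recovered reads edgeR 4.0.16 called 4324 genes and DESeq2 1.42.0 called 3743, against 4183 by limma. The test was tried first on simulated counts. Protein identity is from global alignment of translated coding sequences (Biopython 1.88, BLOSUM62, gap costs 10 and 0.5). The sequence windows are RefSeq's.

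The members, gene lists, tests and alternatives were chosen with earlier results of these data known. All 8 members are named, as are the Ms4a and Tmem176 relatives and the tested genes linked to MS4A proteins. Of each other list, up to 3 genes that passed with the smallest adjusted p are named. Cell markers are given as sums over a list. BE692007, Gm8369, single cell markers, Ifit2 and the ratios between members were named after their values were seen. Alternatives were pseudocounts of 0.5 and 5, median centring, quantile normalization, no limit on low counts, a limit of 50 on the mean, no variance trend, the replicate number as a block, edgeR, DESeq2, and each library left out. Leaving out both libraries numbered 3 and the length of the longest protein-coding transcript were added after seeing the data. Samples given resolvin D2 were not analysed here.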

Additional observations from a re-analysis of the deposited data

How the results depend on the processing

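Over 17 alternatives, 122 of 133 member log2 fold changes stayed on their side of the threshold, 3 lost the call, 8 gained it and 0 called values changed sign. Ms4a4c, Ms4a6d and Ms4a7 were called in each alternative that tested them, and Ms4a14 in 14 of 17. Members higher in old numbered 3 to 5 with each library left out, with 5 without young replicate 3, and 5 without both libraries numbered 3, a setting chosen after seeing the data. Members lower in old numbered 0 to 1 with each library left out, and 0 without old replicate 2 or young replicate 2. Genes called over the whole table numbered 6960 without both libraries numbered 3 and 2940 to 5660 with each library left out, against 4183, and median centring moved the share of higher calls from 50.4% to 60.3%. The summed level ratio of 1.38 ran from 1.32 to 1.60. The share of Ms4a6d in that sum became 67.0% in old and 63.2% in young libraries with the longest protein-coding transcript (chosen after seeing the data), and 71.2% in young libraries with the longest transcript, because the lengths differ by construction. The cause of the other changes was not tested.

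Replicate numbers are shared between the ages, and the deviations of same-numbered libraries from the mean of their age correlated at -0.382, -0.361 and -0.676. Such deviations sum to 0 over the 3 libraries of an age, and the libraries numbered 3 lie at opposite ends of the second component. These correlations therefore cannot decide whether the numbers pair the samples. No library correlated best with its own number. With the replicate number as a block, 2643 genes were called and 0 members were lower (Ms4a14, adjusted p 0.0635), while 3 stayed higher. The fewest reads lay behind Ms4a4a (102 over all libraries) and Ms4a4c (131), which limits what can be seen for them.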
